A study of Mus musculus with 14 samples.

Results

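The genes described are 10 AP-1 and immediate early genes: the FOS family genes Fos, Fosb, Fosl1 and Fosl2, the JUN family genes Jun and Junb, the transcription factor genes Egr1 and Klf4, and the effector genes Ier3 and Dusp1. They were chosen by name from the 36413 gene names of the deposited value table, and all 10 were found and were among the 25853 names tested. AP-1 is a dimer of a FOS and a JUN family protein, or of 2 JUN proteins, that binds DNA and drives genes of growth, matrix breakdown and motility. Immediate early genes are transcribed within minutes of a growth factor, a stress or mechanical handling of cells, mostly through the MAP kinases acting on SRF with its ternary complex factors and on CREB, and need no new protein synthesis. FOS and EGR1 mRNAs decay quickly, whereas FOSL1 and FOSL2, themselves AP-1 targets, are the longer lasting members, and FOSL1 is known for high levels in mesenchymal and invasive carcinoma cells.

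Expression was measured on 14 one-colour arrays in 7 groups of 2. D2A1 cells, a mouse mammary tumor line, were grown alone, with WT mouse embryonic fibroblasts (MEFs, Hsf1 +/+) or with null MEFs (Hsf1 -/-), and WT and null MEFs were each grown alone or with D2A1 cells. Hsf1 encodes the main transcription factor of the heat shock response. Cells were in DMEM with 10% serum, co-culture lasted 72 hours, and the cell types were then separated by flow cytometric sorting. Where D2A1 cells were to be profiled, their MEF partners had been treated with mitomycin C (10 µg/ml for 2 hours), which stops division. The series' question was how the presence of HSF1 in fibroblasts shapes expression in both cell types. The sources used here do not say whether cells grown alone were also sorted, so co-culture and sorting cannot be told apart. Nor do they say whether replicates A and B were separate cultures or how many embryos gave the MEFs, so the spread behind each p-value may be technical.

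The labels mark arrays as replicate A or B and name no slide. All A arrays are taken to lie on 1 slide and all B arrays on the other. Slide A and slide B therefore stand for the replicate letters throughout. Each difference is therefore also given within each slide where the slides differ. Values are log2 levels from the authors' table. Differences are log2 ± standard error (SE) from limma, with n = 2 arrays on each side and 1 variance per gene shared by all 7 groups. A gene passed at an adjusted p under 0.05 (Benjamini-Hochberg over all names tested). Overlap between groups is described for 2 arrays against 2, and the share of all names without overlap was not counted. The scanner files of D2A1 alone A and D2A1 with null MEFs A were faulty, so the values of these 2 arrays rest on the value table only, and fits on the 12 sound scanner arrays have 1 array in each of these groups. Where an array is left out, the lone array of its group is assumed to vary like the other groups. All 10 genes were well above background on the other 12 arrays, with 0 saturated spots.

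Hsf1 checked the labels. Its log2 level was 12.01 and 11.69 in WT MEFs alone (slides A and B), 12.05 and 12.04 in WT MEFs with D2A1 cells, 10.07 and 9.97 in null MEFs alone, and 10.52 and 10.67 in null MEFs with D2A1 cells. It was 12.85 and 12.81 in D2A1 cells alone, 12.78 and 12.72 with WT MEFs and 12.44 and 12.29 with null MEFs. The 4 null MEF arrays were the lowest, and WT exceeded null MEFs alone by 1.83 ± 0.12 (adjusted p = 1.11e-06, limma). The null MEFs still gave signal above background, and where the probe lies relative to the deleted part is not given in the sources used here.

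Each sorted sample also held signal typical of its partner. Over genes at least 32-fold higher in the partner cell type, the median share of the partner's level was 7.49% and 7.41% in D2A1 cells sorted from WT MEFs and 9.83% and 22.1% in those sorted from null MEFs. It was 37.7% and 38.4% in WT MEFs and 7.64% and 10.4% in null MEFs sorted from D2A1 cells. Fibroblast markers moved the same way, with 13 of 14 higher in D2A1 cells with WT MEFs and 8 of 14 higher with null MEFs. Of 12 epithelial markers tested, 4 rose and 2 fell (Krt19, -1.31, and Cldn7, -0.49) in WT MEFs and 1 rose in null MEFs, with list medians of 0.08 and 0.01. The summed linear level of all 15 listed epithelial markers went from 1480 to 1630 units in WT MEFs alone to 74400 to 85700 after co-culture. In null MEFs it went from 4320 to 5170 to 28200 to 41600. Krt18, a keratin, made up 98.4% and 98.5% of the sum in co-cultured WT MEFs and 86.1% and 88.8% in co-cultured null MEFs. Without it the sum in co-cultured WT MEFs was 1170 and 1260, against 1250 and 1340 in WT MEFs alone. In null MEFs it was 3910 and 4670, against 4150 and 4930 alone. For each gene below, the share times the level in the co-cultured partner on the same slide is called its carry-over estimate. The MEF levels in it come from the MEFs profiled after co-culture, for which the labels name no mitomycin C, so they are not those of the treated partners that the profiled D2A1 cells had. In bulk samples, fewer cells of a type cannot be told apart from less RNA per cell.

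**Figure D1:**
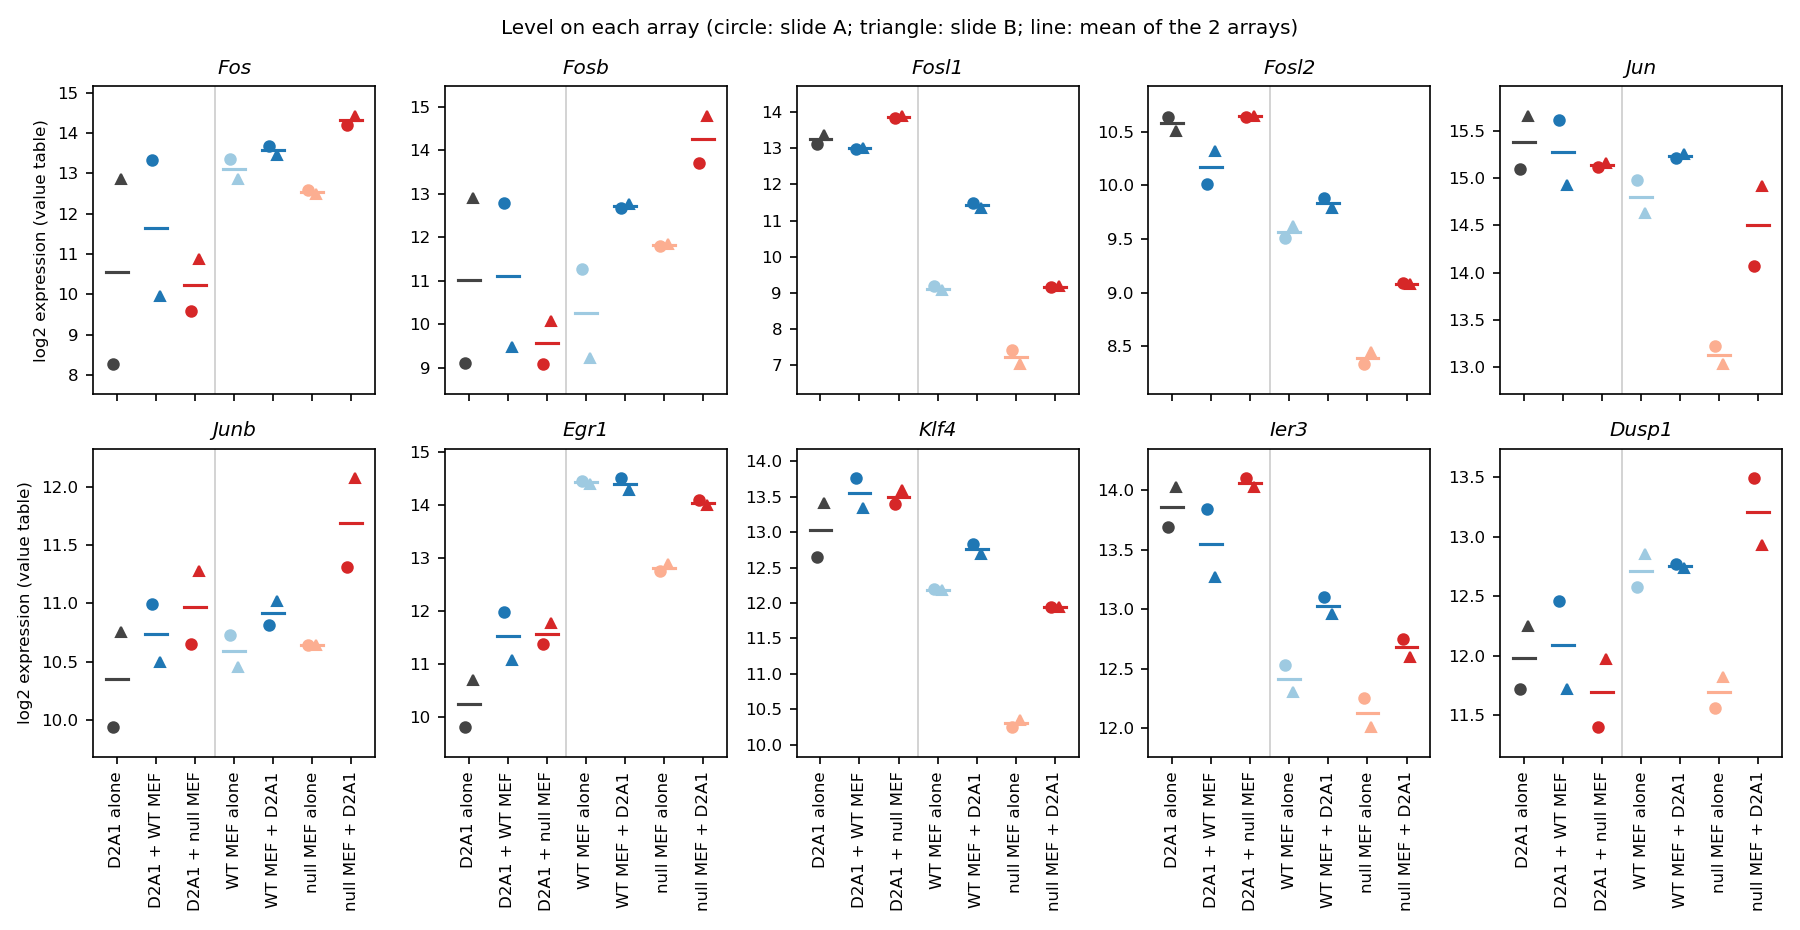
Log2 level of each gene (y axis, value table) in the 7 groups (x axis); circles are slide A arrays, triangles slide B arrays and lines the mean of the 2 arrays. Fosl1 spans 7.22 to 13.87 in its group means with close replicates, while the Fos arrays of D2A1 cells alone lie at 8.26 and 12.85.

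By group means, every D2A1 group lay above every MEF group for Fosl1, Fosl2, Ier3 and Klf4. Every D2A1 group lay below every MEF group for Egr1 and, with overlapping arrays, for Fos. For Fosb, Jun, Junb and Dusp1 the groups of the cell types were mixed. Grown alone, D2A1 cells had more Fosl1, Fosl2, Ier3 and Klf4 than MEFs of either genotype, and less Egr1. Of the 10 genes, 4 passed as higher and 1 as lower in D2A1 cells alone than in WT MEFs alone, where 27.8% and 23.6% of all names did. Against null MEFs alone, 5 passed as higher and 1 as lower, where 27.3% and 25.4% of all names did. Both comparisons use the same D2A1 arrays.

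Fosl1 encodes FRA1, a FOS family partner of JUN that lacks a strong activation domain. Its probe lies at chr19:5455496-5455555 (mm9, + strand). Fosl1 reached 13.11 and 13.38 in D2A1 cells alone, 9.18 and 9.07 in WT MEFs alone and 7.42 and 7.02 in null MEFs alone. The 3 groups were fully apart, and D2A1 cells exceeded WT MEFs by 4.12 ± 0.14 (adjusted p = 5.08e-09, limma) and null MEFs by 6.03 ± 0.14 (adjusted p = 5.01e-10). Over all groups its means spanned 101-fold, more than those of any other member, and only null MEFs with D2A1 cells (9.15 and 9.18) and WT MEFs alone overlapped.

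Fosl2 encodes FRA2, the other FOS family protein of this kind. It stood at 10.64 and 10.51 in D2A1 cells alone, 9.51 and 9.62 in WT MEFs alone and 8.33 and 8.45 in null MEFs alone, again without overlap. D2A1 cells exceeded WT MEFs by 1.01 ± 0.12 (adjusted p = 4e-05) and null MEFs by 2.19 ± 0.12 (adjusted p = 1.16e-07, limma). Fosl2 has 2 probes, a bright probe at chr5:32460076-32460135 and a dim probe at chr5:32455088-32455147 (mm9, + strand). On slide B, where both scanner files are sound, the bright probe put D2A1 cells 0.43 above WT MEFs and the dim probe 1.93 above them, so the size of that difference depends on the probe.

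Fos and Fosb, the quickly induced FOS family genes, were not set apart in this way, because their D2A1 arrays disagreed. In D2A1 cells alone Fos was 8.26 on slide A and 12.85 on slide B, while in MEFs alone it lay between 12.48 and 13.36. Fosb was 9.11 and 12.90 in D2A1 cells alone, 11.27 and 9.23 in WT MEFs alone and 11.80 and 11.84 in null MEFs alone. Neither gene passed between D2A1 cells and MEFs (Fos -2.56 ± 1.29, adjusted p = 0.124, and Fosb 0.76 ± 1.24, adjusted p = 0.642, against WT MEFs, limma). Without D2A1 alone B, Fos would pass as lower than in WT MEFs (-4.86, adjusted p = 0.00401) and null MEFs (-4.27, adjusted p = 0.00773).

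Jun encodes the main activating partner of FOS proteins and Junb a weaker one. Their probes lie at chr4:94716928-94716987 and chr8:87501881-87501940 (mm9, both - strand). Jun was 15.10 and 15.66 in D2A1 cells alone, 14.98 and 14.63 in WT MEFs alone and 13.23 and 13.03 in null MEFs alone. Null MEFs were thus clearly the lowest, and D2A1 cells exceeded them by 2.25 ± 0.30 (adjusted p = 8.95e-05, limma). Junb stayed within a narrow band, 9.94 and 10.75 in D2A1 cells alone, 10.73 and 10.45 in WT MEFs alone and 10.64 and 10.64 in null MEFs alone, and these groups overlapped.

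Egr1, a zinc finger factor induced through SRF, was lowest in D2A1 cells, where Fosl1 was highest. It was 9.82 and 10.70 in D2A1 cells alone, 14.45 and 14.40 in WT MEFs alone and 12.76 and 12.89 in null MEFs alone, with no overlap. The difference from WT MEFs was -4.17 ± 0.31 (adjusted p = 1.05e-06) and that from null MEFs -2.57 ± 0.31 (adjusted p = 4.33e-05, limma). Klf4, a zinc finger factor of differentiation and growth arrest, was 12.65 and 13.41 in D2A1 cells alone, 12.20 and 12.18 in WT MEFs alone and 10.25 and 10.35 in null MEFs alone. It exceeded WT MEFs by 0.84 ± 0.22 (adjusted p = 0.00786), a call that was lost without D2A1 alone B (0.46, adjusted p = 0.0573), and null MEFs by 2.73 ± 0.22 (adjusted p = 1.93e-06, limma). The Klf4 probe lies at chr4:55540167-55540226 (mm9, - strand).

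Ier3, which encodes a short-lived regulator of survival and ERK signalling (probe at chr17:35959528-35959587, mm9, + strand), was 13.69 and 14.03 in D2A1 cells alone, 12.53 and 12.30 in WT MEFs alone and 12.25 and 12.01 in null MEFs alone. D2A1 cells were above every MEF array, by 1.45 ± 0.19 (adjusted p = 8.06e-05) and 1.73 ± 0.19 (adjusted p = 2.07e-05, limma). Dusp1, a phosphatase that switches off the JNK, p38 and ERK kinases, was 11.72 and 12.25 in D2A1 cells alone, 12.58 and 12.85 in WT MEFs alone and 11.56 and 11.82 in null MEFs alone. D2A1 cells overlapped with null MEFs and lay below WT MEFs, without passing (-0.73 ± 0.29, adjusted p = 0.0574, limma). Without D2A1 alone B, Dusp1 would pass as lower (-0.99, adjusted p = 0.0391).

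With all 7 groups in order of their means, Fosl1, Fosl2 and Ier3 each began with D2A1 cells with null MEFs and ended with null MEFs alone, and each had 1 pair of overlapping neighbours. Klf4 ran from D2A1 cells with WT MEFs (13.76 and 13.34) down to null MEFs alone, and each D2A1 group overlapped with the next group down, but no MEF group did. Jun ran from D2A1 cells alone to null MEFs alone, whose arrays lay below all others. Fos, Fosb, Junb and Dusp1 were each highest in null MEFs with D2A1 cells, a group that overlapped with no neighbour, while most of their lower groups overlapped. Egr1 was highest in WT MEFs, where cells alone and co-cultured overlapped, and lowest in D2A1 cells alone.

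The replicates of the D2A1 groups disagreed for Fos and Fosb. In D2A1 cells with WT MEFs, Fos was 13.33 on slide A and 9.97 on slide B, a 10.3-fold gap, and Fosb was 12.78 and 9.47, a 9.95-fold gap. In D2A1 cells alone the gap ran the other way, 24.1-fold for Fos and 13.8-fold for Fosb, with slide B higher. In D2A1 cells with null MEFs it was 2.46-fold for Fos (9.58 and 10.88) and 2-fold for Fosb (9.08 and 10.08), again with slide B higher. Of all names tested, 0.0967% in D2A1 cells with WT MEFs and 0.0232% in D2A1 cells alone had arrays as far apart as Fos did. Fos is measured by 10 spots per array (chr12:86817900-86817959, mm9, + strand) and Fosb by 1 (chr7:19888168-19888227, - strand).

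Other members leaned the same way with smaller gaps. In D2A1 cells with WT MEFs, 8 of 10 members were higher on slide A, with a median A minus B of 0.62, against -0.02 over all names. In D2A1 cells alone, 9 of 10 were higher on slide B (median -0.66, against -0.04), and in D2A1 cells with null MEFs 9 of 10 were (median -0.29, against -0.01). Egr1 was 0.89 higher on slide A with WT MEFs and 0.88 higher on slide B alone, while Fosl1 (-0.02 and -0.27) and Fosl2 (-0.30 and 0.13) moved little in either group. Of the 30 other immediate early effector genes, 27 were higher on slide A in D2A1 cells with WT MEFs and 22 on slide B in D2A1 cells alone. Ppp1r15a, a stress-induced phosphatase subunit, was 14.21 and 12.87 with WT MEFs and 12.75 and 13.95 alone. Klf2 was 12.02 and 11.01 with WT MEFs and 9.96 and 11.11 alone. Since the lean ran in opposite directions on the same slide, a fit with slide as a term does not remove it.

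MEF replicates lay closer for Fos, which differed by at most 0.50 between the arrays of a MEF group. Fosb was an exception, with 11.27 and 9.23 in WT MEFs alone and 13.71 and 14.79 in null MEFs with D2A1 cells. Because the fit shares 1 variance per gene, the spread of the D2A1 arrays sets the SE of Fos (1.29) and Fosb (1.24) in MEF comparisons too.

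**Figure D2:**
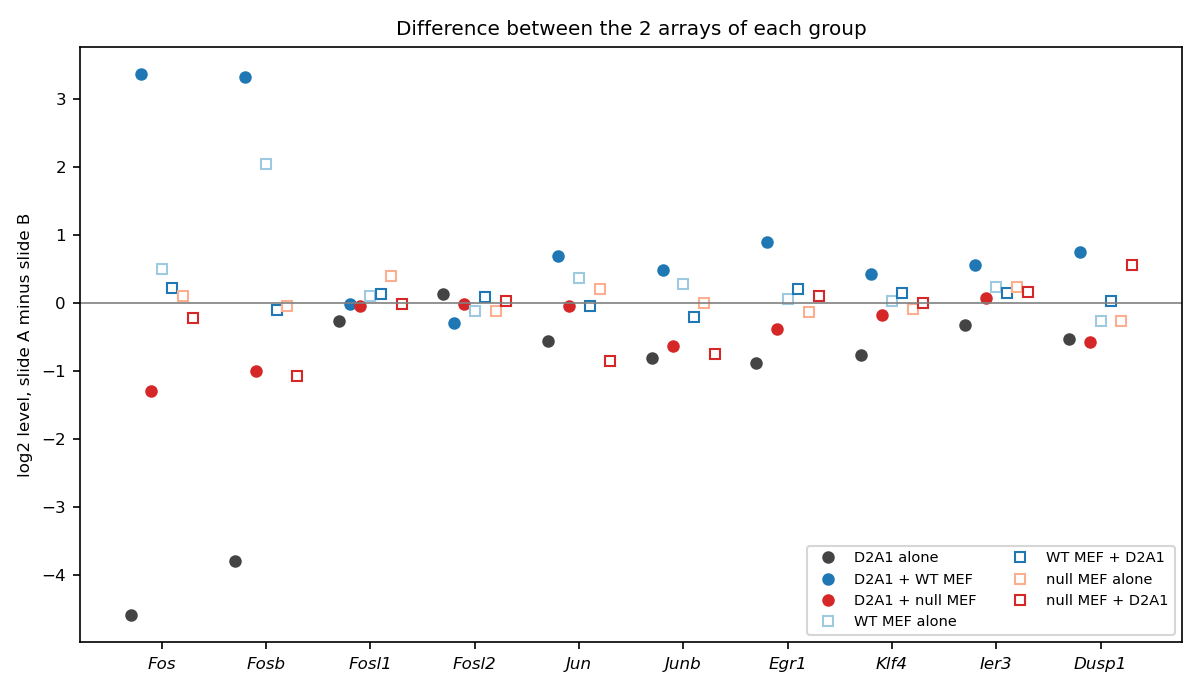
Log2 level on slide A minus slide B (y axis) for each gene (x axis) in each of the 7 groups; filled circles are D2A1 groups and open squares MEF groups. Fos and Fosb in D2A1 cells lie at 3.36 and 3.31 with WT MEFs and at -4.59 and -3.79 alone, while Fosl1 and Fosl2 stay near 0.

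Promoters of the members, whether they leaned or not, were compared for the letters of known response elements. The 250 bases before the start given by RefSeq (GRCm38.p6) were searched. Of the 10 genes, 8 matched RefSeq's promoter table and Fosl1 and Egr1 did not. The core of the cyclic AMP response element, TGACG on either strand, was in 5 of the 8 (Fos, Fosb, Junb, Dusp1 and Klf4), against 17.9% of 27025 promoters. The full element TGACGTCA, which holds the core on both strands, was in Dusp1 alone (1.62% of all promoters). Jun and Ier3 had no core in this window but leaned as well. Slide A minus slide B was 0.69 and 0.56 for them with WT MEFs and -0.56 and -0.33 alone. The stretches next to the start are shown with each core in capitals, 5′ to 3′ on the gene's strand. They are those of Fos and Fosb, which swung most, of Junb and Dusp1, which leaned with them, and of Jun.
Fos (chr12:85473790-85473889, + strand): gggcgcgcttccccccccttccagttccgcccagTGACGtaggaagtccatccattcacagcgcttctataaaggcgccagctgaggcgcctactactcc
Fosb (chr7:19310046-19310145, - strand): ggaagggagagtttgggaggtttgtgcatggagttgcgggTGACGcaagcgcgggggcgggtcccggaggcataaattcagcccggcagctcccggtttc
Junb (chr8:84978749-84978898, - strand): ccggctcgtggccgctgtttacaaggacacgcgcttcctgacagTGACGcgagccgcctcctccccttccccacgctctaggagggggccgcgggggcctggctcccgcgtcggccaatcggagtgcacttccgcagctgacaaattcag
Dusp1 (chr17:26508473-26508692, - strand): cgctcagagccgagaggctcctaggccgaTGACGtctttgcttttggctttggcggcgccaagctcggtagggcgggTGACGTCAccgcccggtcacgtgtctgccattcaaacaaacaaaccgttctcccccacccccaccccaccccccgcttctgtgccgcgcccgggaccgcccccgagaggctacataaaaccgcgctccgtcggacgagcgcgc
Jun (chr4:95052223-95052322, - strand): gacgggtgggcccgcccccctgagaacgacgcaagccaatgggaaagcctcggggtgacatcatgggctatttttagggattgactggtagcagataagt

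The core begins 66 bases before the start in Fos, 60 in Fosb and 106 in Junb. The AP-1 site TGANTCA and the CArG box, which SRF binds, were in 0 of the 8 windows, against 6.87% and 1.4% of all promoters. Longer variants, such as tgacatca in the Jun stretch shown, were not searched for. The heat shock element letters GAANNTTC were in Fosl2 and Jun (6.78% of all promoters), and TTCNNGAA in 0 of 8 (7.1%), all on both strands. A match is a description of these letters and not a binding site, and sites further upstream than these windows were not searched.

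In D2A1 cells, co-culture with WT MEFs left 1 of the 10 genes past the test as higher, Egr1, where 7.04% of all names were higher. None of the 10 passed as lower, where 4.76% of all names did; at an unadjusted p under 0.05, 2 were higher and 1 lower (limma). With null MEFs, Fosl1 and Egr1 passed as higher (2 of 10, against 10.1% of all names) and 0 as lower (9.61%), also at an unadjusted p. The members' median difference was 0.11 with WT MEFs and 0.14 with null MEFs, against -0.04 and -0.09 over all names. The comparisons share the D2A1 alone arrays.

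Egr1 was 9.82 and 10.70 in D2A1 cells alone, 11.98 and 11.09 with WT MEFs and 11.38 and 11.77 with null MEFs. Each co-cultured array was above both arrays of cells alone, by 1.28 ± 0.31 with WT MEFs (adjusted p = 0.0221) and 1.32 ± 0.31 with null MEFs (adjusted p = 0.0135, limma). On slide B the rise with WT MEFs was 0.39, against 2.17 on slide A. The carry-over estimate came to 42.9% and 67.9% of the Egr1 level measured with WT MEFs and 64.2% and 103% of that with null MEFs. With carry-over subtracted, Egr1 was 11.29 and 9.56 with WT MEFs, which overlapped with cells alone, and 10.05 on slide A with null MEFs, while nothing above the array's floor was left on slide B. Leaving out D2A1 alone A also ended both calls (0.84, adjusted p = 0.144, and 0.88, adjusted p = 0.0898). So did leaving out D2A1 with WT MEFs A for the first (0.83, adjusted p = 0.142) and D2A1 with null MEFs B for the second (1.12, adjusted p = 0.096).

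Fosl1 was 13.11 and 13.38 in D2A1 cells alone, 12.99 and 13.02 with WT MEFs and 13.85 and 13.90 with null MEFs. The cells with null MEFs were the highest of the 3 groups, 0.63 ± 0.14 above cells alone (adjusted p = 0.0108, limma), with a carry-over estimate under 1% of the level (0.378% and 0.839%). This rise was lost without D2A1 alone A (0.49, adjusted p = 0.0731) or D2A1 with null MEFs B (0.61, adjusted p = 0.0593), and on the sound scanner arrays, with 1 array on each side, the difference was 0.18 (adjusted p = 0.759). The difference with WT MEFs did not pass (-0.24 ± 0.14, adjusted p = 0.313).

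Klf4 was 12.65 and 13.41 in D2A1 cells alone, 13.76 and 13.34 with WT MEFs and 13.40 and 13.59 with null MEFs, and the groups overlapped. It did not pass (0.53 ± 0.22, adjusted p = 0.154, and 0.47 ± 0.22, adjusted p = 0.164, limma), but would without D2A1 alone B (0.91, adjusted p = 0.0119, and 0.85, adjusted p = 0.0117). Fosl2 with WT MEFs (-0.41 ± 0.12, adjusted p = 0.0512) would pass as lower without D2A1 with WT MEFs B (-0.56, adjusted p = 0.0277) and with slide as a replicate block (adjusted p = 0.0405).

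Compared directly, D2A1 cells with WT MEFs had less Fosl1 and Fosl2 than those with null MEFs. These 2 of 10 passed as lower, where 5.39% of all names did, and 0 as higher, where 4.12% did, nor at an unadjusted p under 0.05 (limma). Fosl1 differed by -0.87 ± 0.14 (adjusted p = 0.00314), a 1.83-fold gap of -0.86 on slide A and -0.88 on slide B, with no overlap. Fosl2 was 10.01 and 10.32 with WT MEFs and 10.64 and 10.65 with null MEFs, a difference of -0.48 ± 0.12 (adjusted p = 0.0307). On slide B the dim Fosl2 probe differed by -0.80 and the bright one by -0.12, and leaving out D2A1 with WT MEFs A (adjusted p = 0.178), D2A1 with null MEFs A (0.0851) or D2A1 with null MEFs B (0.104) ended this call. On the sound scanner arrays, with 2 arrays against 1, Fosl1 differed by -0.66 (adjusted p = 0.168).

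Of the remaining genes, Ier3 was 13.84 and 13.27 with WT MEFs and 14.10 and 14.03 with null MEFs (-0.51 ± 0.19, adjusted p = 0.129). It would pass without D2A1 with WT MEFs A (-0.79, adjusted p = 0.0345). Jun, Junb, Dusp1 and Klf4 overlapped between the partners, with differences from -0.22 to 0.40. Fos and Fosb differed by 1.42 ± 1.29 and 1.54 ± 1.24, positive on slide A and negative on slide B.

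Other genes of the pathway were counted in D2A1 cells as well. Of 16 MAP kinase phosphatases and feedback inhibitors tested, 5 fell with WT MEFs and 4 with null MEFs, and 0 rose with either, where 4.76% and 9.61% of all names fell and 7.04% and 10.1% rose. Dusp3 (-1.42 with WT and -0.57 with null MEFs) and Dusp9 (-1.22 and -1.03), phosphatases of ERK and p38, were among them. In the same comparisons the fibroblast markers rose, and the part of carried-over RNA was not tested for these lists. Of 16 other immediate early factors, 2 rose and 1 fell with WT MEFs and 3 rose and 1 fell with null MEFs, not far from the shares over all names. Klf10, a TGF-beta early response gene, was 0.97 and 1.08 higher and Egr2 1.47 and 1.18 higher. Of 20 AP-1 target genes, 8 rose and 7 fell with WT MEFs, led by the stromelysin gene Mmp3 (3.15), and 8 rose and 3 fell with null MEFs. Between partners, the bZIP genes Batf2 (-1.77) and Atf3 (-2.13) were lower with WT MEFs.

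In WT MEFs, co-culture left 1 of 10 genes past the test as higher, where 6.32% of all names were, and 0 as lower, where 4.21% were. At an unadjusted p under 0.05, 4 were higher and 0 lower (limma). The median difference was 0.45, against -0.04 over all names. Fosl1 rose from 9.18 and 9.07 to 11.48 and 11.35, without overlap, by 2.29 ± 0.14 (4.9-fold, adjusted p = 1.46e-06). Its carry-over estimate was 107% and 122% of the measured level, so subtracting it left nothing above the arrays' floor and no difference can be given.

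Fosb was 11.27 and 9.23 in WT MEFs alone and 12.67 and 12.77 with D2A1 cells, higher on both slides, by 2.47 ± 1.24 (adjusted p = 0.275, limma). Ier3 went from 12.53 and 12.30 to 13.10 and 12.96 (0.62 ± 0.19, adjusted p = 0.066) and Klf4 from 12.20 and 12.18 to 12.83 and 12.69 (0.57 ± 0.22, adjusted p = 0.14), each without overlap. With the MEF arrays fitted alone, so that the D2A1 spread no longer counts, these 3 genes passed (adjusted p = 0.0407, 0.0242 and 0.00917). The carry-over estimate reached 62.6% and 47.8% of the Ier3 level and 72.2% and 60.5% of the Klf4 level. Egr1 (14.45 and 14.40 alone, 14.50 and 14.29 with D2A1 cells) and Dusp1 (12.58 and 12.85, 12.77 and 12.74) overlapped between the groups.

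In null MEFs all 10 genes were higher after co-culture on both slides, with a median difference of 1.44 against -0.04 over all names. The share of all names higher on both slides was not counted. Of the 10 genes, 5 passed as higher, where 2.82% of all names did: Fosl1, Fosl2, Jun, Dusp1 and Klf4. None passed as lower, where 0.333% of all names did, nor at an unadjusted p under 0.05, where 8 were higher (limma).

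Klf4 was 10.25 and 10.35 in null MEFs alone and 11.95 and 11.94 with D2A1 cells. Co-culture set the groups fully apart, by 1.64 ± 0.22 (3.13-fold, adjusted p = 0.00119, limma). Its carry-over estimate was 21% and 32.4% of the measured level.

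Dusp1 rose from 11.56 and 11.82 to 13.49 and 12.93, by 1.52 ± 0.29 (adjusted p = 0.0153, limma), and its carry-over estimate was 1.81% and 5.33%. All co-cultured arrays exceeded those of cells alone. Jun rose from 13.23 and 13.03 to 14.07 and 14.92, by 1.36 ± 0.30 (adjusted p = 0.0327), with a carry-over estimate of 15.8% and 12.2%. The Dusp1 call was lost without null MEFs with D2A1 A (1.24, adjusted p = 0.106), null MEFs alone A (1.38, 0.136) or null MEFs alone B (1.65, 0.0654). The Jun call was lost without null MEFs with D2A1 B (0.94, adjusted p = 0.198), null MEFs alone A (1.46, 0.121) or null MEFs alone B (1.27, 0.231). On the 12 sound scanner arrays neither passed (1.77, adjusted p = 0.254, for Dusp1 and 1.21, adjusted p = 0.159, for Jun).

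Fosl1 rose from 7.42 and 7.02 to 9.15 and 9.18 (1.95 ± 0.14, adjusted p = 1.14e-05, limma). The carry-over estimate was 199% and 273% of its measured level, so here too nothing was left above the floor after subtraction. Fosl2 rose from 8.33 and 8.45 to 9.09 and 9.08 (0.70 ± 0.12, adjusted p = 0.00751). Its bright probe rose by 1.26 and 0.87 on slides A and B and its dim probe by -0.11 and 0.29, and the call was lost with carry-over subtracted (0.38, adjusted p = 0.648) and without null MEFs alone A (0.63, adjusted p = 0.0831).

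Of the genes that did not pass, Fos went from 12.58 and 12.48 to 14.20 and 14.43, 1.79 ± 1.29 (adjusted p = 0.767, limma), and Egr1 from 12.76 and 12.89 to 14.09 and 13.99, 1.21 ± 0.31 (adjusted p = 0.0706). Neither gene's groups overlapped, and the carry-over estimate was at most 0.883% for Fos and 2.22% for Egr1. With the MEF arrays fitted alone both passed (adjusted p = 0.00158 and 0.00106). Fosb went from 11.80 and 11.84 to 13.71 and 14.79 (2.43 ± 1.24, adjusted p = 0.55), Junb from 10.64 and 10.64 to 11.31 and 12.07 (1.05 ± 0.32, adjusted p = 0.162) and Ier3 from 12.25 and 12.01 to 12.75 and 12.60 (0.55 ± 0.19, adjusted p = 0.232). All 3 were higher on each co-cultured array than on each array of cells alone.

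**Figure D3:**
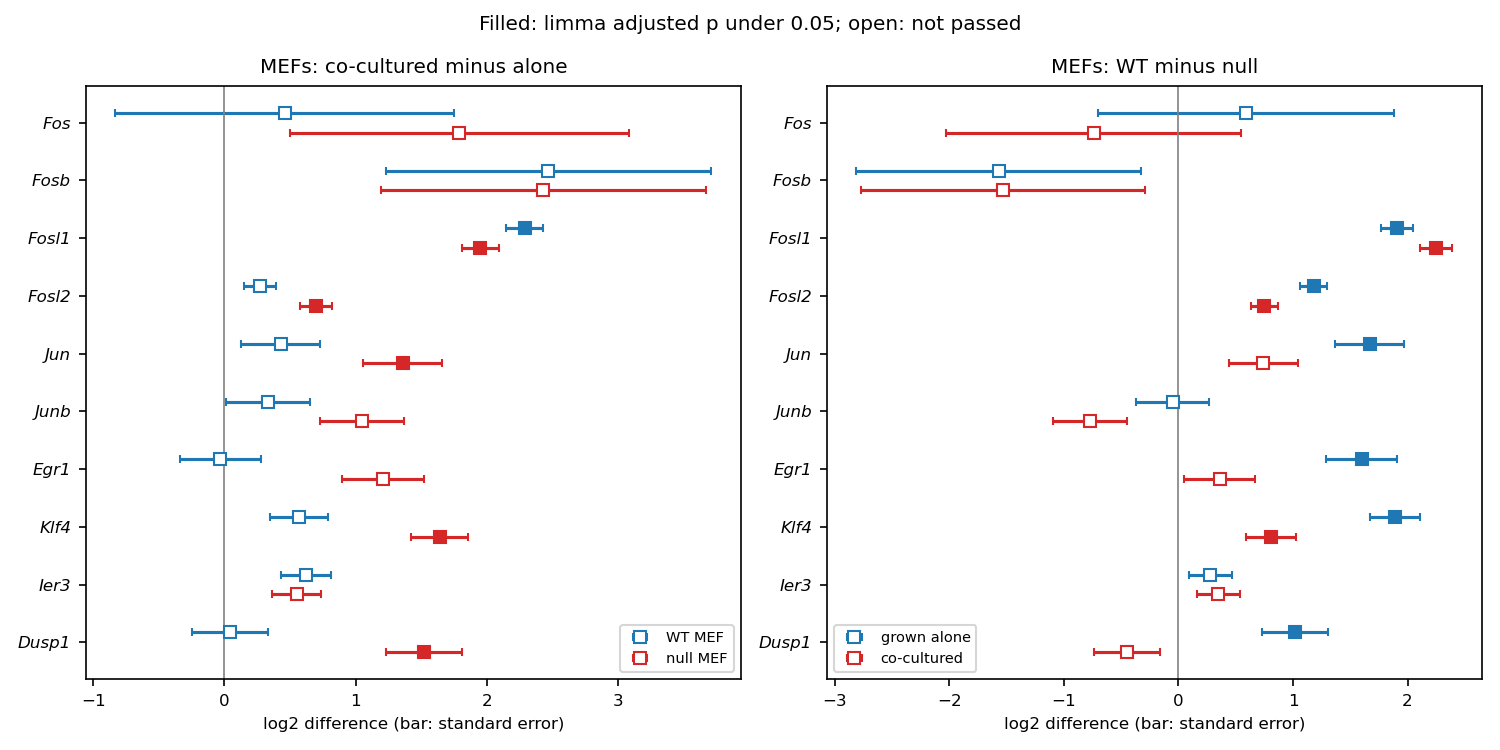
Log2 differences with SE bars (x axis) for each gene (y axis): left, co-cultured minus alone in WT MEFs (blue) and null MEFs (red); right, WT minus null in MEFs alone (blue) and co-cultured (red); filled squares passed the test. In null MEFs all 10 differences lie above 0, and for Fos, Fosl2, Jun, Junb, Egr1, Klf4 and Dusp1 the null MEF value lies to the right of the WT value.

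The difference between the responses of WT and null MEFs was tested as an interaction, and 0 of 10 genes passed in either direction, where 1.96% of all names were higher and 1.06% lower. At an unadjusted p under 0.05, 5 were lower and 0 higher (limma). The median was -0.83, against 0.00 over all names, and 7 of 10 differences were negative. Dusp1 differed by -1.47 ± 0.41 (adjusted p = 0.108), Klf4 by -1.08 ± 0.31 (0.114) and Egr1 by -1.25 ± 0.43 (0.217), each negative on both slides. With the MEF arrays fitted alone, 4 passed as lower: Egr1 (adjusted p = 0.00873), Klf4 (0.00838), Dusp1 (0.0375) and Fos (-1.33, 0.0392). A larger response of these genes in null than in WT MEFs is thus not shown by the fit over all groups.

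Grown alone, WT MEFs had more Fosl1, Fosl2, Jun, Egr1, Klf4 and Dusp1 than null MEFs. These 6 of 10 passed as higher, where 15.9% of all names did, and 0 as lower, where 17.9% did, nor at an unadjusted p (limma). No gene of the 6 had overlapping groups, which adds no support, since these genes were picked by passing. Fosl1 was 1.91 ± 0.14 higher (adjusted p = 2.24e-06), Klf4 1.89 ± 0.22 (5.83e-05), Jun 1.67 ± 0.30 (0.00126), Egr1 1.60 ± 0.31 (0.00204) and Fosl2 1.18 ± 0.12 (2.3e-05). Dusp1 was 1.02 ± 0.29 higher (adjusted p = 0.0197), a call lost without WT MEFs alone B (0.89, 0.117) or null MEFs alone A (0.89, 0.115). Fosb (-1.57 ± 1.24), Fos (0.59 ± 1.29), Junb (-0.05 ± 0.32) and Ier3 (0.28 ± 0.19) did not pass. Of the 4 MEF groups, null MEFs alone had the lowest mean for 8 of 10 genes, and the same arrays enter the null MEF response. The share of all names with their lowest mean in that group was not counted.

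After co-culture 3 of 10 genes passed as higher in WT than in null MEFs, where 14.8% of all names did: Fosl1 (2.25 ± 0.14, adjusted p = 1.72e-06), Fosl2 (0.75 ± 0.12, 0.000796) and Klf4 (0.81 ± 0.22, 0.0163, limma). None passed as lower, where 14.8% of all names did; at an unadjusted p, 4 were higher and 1, Junb, lower. With carry-over subtracted, Klf4 no longer passed (0.22, adjusted p = 0.56), and Fosl1 lay at the floor in both genotypes, so its difference cannot be read there. Klf4 was also lost without any 1 of the 4 co-cultured MEF arrays, at an adjusted p between 0.0526 and 0.0965 (limma). Jun (0.74 ± 0.30, adjusted p = 0.0908) would pass as higher without null MEFs with D2A1 B (1.16, adjusted p = 0.0195), and Junb (-0.77 ± 0.32, adjusted p = 0.103) as lower without null MEFs with D2A1 A (-1.15, adjusted p = 0.0412). Egr1 was 14.50 and 14.29 in WT and 14.09 and 13.99 in null MEFs (0.36 ± 0.31, adjusted p = 0.46), and Dusp1 12.77 and 12.74 against 13.49 and 12.93 (-0.45 ± 0.29, 0.301). Null MEFs with D2A1 cells had the highest mean of the 4 MEF groups for Fos, Fosb, Junb and Dusp1.

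**Figure D4:**
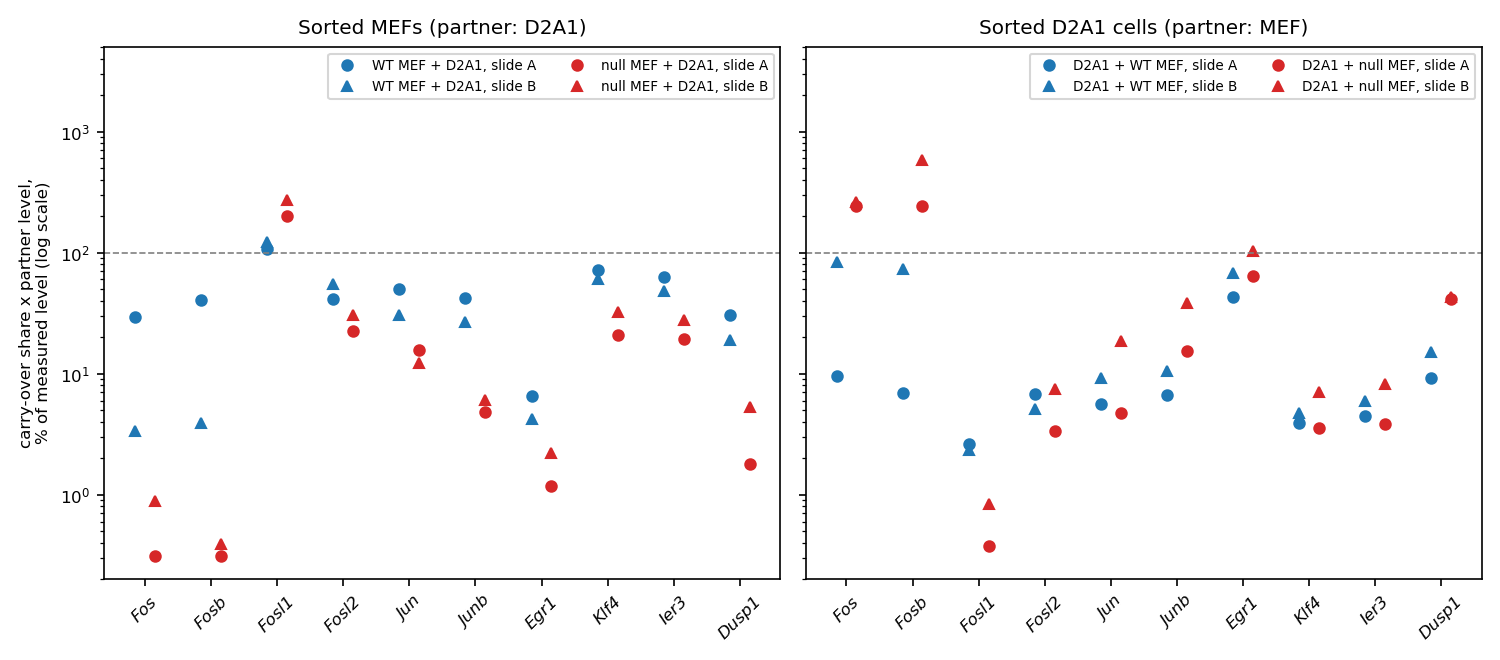
Carry-over estimate as a percentage of the measured linear level (y axis, log scale) for each gene (x axis) in sorted MEFs (left) and sorted D2A1 cells (right); circles are slide A, triangles slide B, blue WT and red null partners or MEFs, and the dashed line marks 100%. Fosl1 lies above 100% in all 4 sorted MEF arrays, and Fos and Fosb do so in D2A1 cells with null MEFs.

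The carry-over estimate was no exact measure for every gene. In D2A1 cells with null MEFs it came to 242% and 260% of the Fos level and 243% and 580% of the Fosb level, above what was measured. In null MEFs it was under 1% for Fos and Fosb and between 4.83% and 6.02% for Junb.

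Other genes of the pathway were counted in both MEF genotypes. Of 30 other immediate early effectors, 10 rose and 2 fell in WT MEFs and 9 rose and 0 fell in null MEFs, where 6.32% and 2.82% of all names rose and 4.21% and 0.333% fell. Rgs16, an inhibitor of G protein signalling, rose by 4.19 in WT and 2.68 in null MEFs, and the kinase gene Sgk1 by 1.46 and 2.15. Of 16 MAP kinase phosphatases and feedback inhibitors, 5 rose in WT and 3 in null MEFs. Dusp6, the ERK phosphatase, was up by 1.61 and 2.45 and Dusp4 by 2.07 and 2.00. Dusp4 was not well above background in null MEFs alone, so differences from that level depend on the floor. In D2A1 cells alone, Rgs16 and Dusp4 were higher than in WT MEFs alone (6.22 and 4.28) and null MEFs alone (6.17 and 5.48). Sgk1 and Dusp6 were higher there than in null MEFs alone (4.02 each). The part of carried-over RNA in these rises was not tested. Of 13 other bZIP partners, Jdp2, an AP-1 repressor, fell in WT MEFs (-0.70), and Maff rose (1.47) and Batf fell (-0.73) in null MEFs. Of 16 other immediate early factors, 1 fell in WT MEFs (Srf, -0.46) and 0 passed in null MEFs.

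Of 20 AP-1 target genes, 13 rose and 2 fell in WT MEFs and 9 rose and 0 fell in null MEFs, against the same shares of all names. Their median difference was 0.85 and 0.61, against -0.04 over all names. Mmp10 rose by 6.28 in WT and 2.75 in null MEFs, the EGF receptor ligand gene Areg by 5.60 and 3.15, and Spp1, encoding osteopontin, by 4.95 and 6.42. Areg in MEFs alone of both genotypes and Mmp10 in WT MEFs alone were not well above background. The sizes of differences from these levels therefore depend on the floor. Areg, Mmp10 and Spp1 were also higher in D2A1 cells alone than in null MEFs alone (6.23, 6.72 and 6.56), and the part of carried-over RNA in their rise was not tested. Of 21 upstream kinases and SRF regulators, 4 rose in WT MEFs and 1, Elk3, rose in null MEFs (0.45), where 6.32% and 2.82% of all names rose. Of 10 other KLF genes, Klf9 rose (0.49) and Klf12 (-0.70) and Klf8 (-0.87) fell in WT MEFs, and 0 passed in null MEFs (limma).

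Over the 14 arrays, each gene's nearest neighbour by Pearson r of log2 levels was found as a description, without a test, since groups and cell types shape it. Fosl1 ran closest with Il12rb1 (r = 0.993), Fosl2 with Ccdc109b (0.985), Jun with Ccnd1 (0.939), Klf4 with Sgk1 (0.972), Ier3 with Itgb7 (0.976) and Egr1 with Trp53inp2 (0.966). Fos ran closest with the probe A_55_P2159595 (0.928), which has no gene symbol, Fosb with D130062J21Rik (0.889) and Junb with Gm13105 (0.895). For Dusp1 the highest r was 0.846, with a probe named only by its position. Among the 10 genes, Fosl1 ran with Fosl2 and Ier3 (0.96 each) and Klf4 (0.93) and against Egr1 (-0.65), whereas Fos ran with Fosb (0.84), Egr1 (0.80) and Dusp1 (0.79).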

How the data were processed

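Gene expression was measured in 14 samples of total RNA (0.5 µg each), labelled with Cy3 and hybridised to Agilent mouse arrays of design 028005, per the file headers. Intensity values in the deposited scanner files came from Feature Extraction 10.1.1.1, as the file headers have it, or 9.1 in the submitters' processing notes. The deposited value table covers 36553 probes (140 of them controls) in log2 units. The scaling and centring behind these log2 units are unknown (array medians 6.33 to 6.40), and higher values were checked to mean brighter spots.

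The scanner files of 2 arrays (D2A1 alone A and D2A1 with null MEFs A) carried outlier flags on 32.1% and 36.8% of spots, against at most 5.75% on the other 12, so the value table was the main source. Gene names came from the first B scanner file, since 55 names differed in the A file. For names with several probes the table followed the mean of the probes (r = 0.944) more closely than its own probe (r = 0.875). Names well above background on all sound arrays of at least 1 group were tested (25853). For D2A1 alone and D2A1 with null MEFs this was the B array only. A model of 7 group means was fitted with limma 3.58.1 in R 4.3.3 (lmFit and eBayes, 7 residual degrees of freedom), with Benjamini-Hochberg adjustment within each comparison, threshold 0.05; it was tested on simulated data. The number of arrays limits the precision. The 10 genes, the pathway and marker lists, and the rule for naming list genes (at most 6 of a list per comparison, those that passed with the smallest p) were chosen with earlier results of these data known, so list counts are descriptions. Probe positions are mm9; promoters are RefSeq GRCm38.p6 and were not mixed with them. The carry-over estimate used genes at least 32-fold higher in the partner alone and at least 8-fold above the array floor (77 to 330 genes). Alternatives were the replicate block, each cell type alone, scanner values, normexp (offset 50), the brightest probe, quantile normalization, no filter, carry-over subtraction, leaving out each array and, added after the data were seen, leaving out the 2 arrays with faulty scanner files.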

Additional observations from a re-analysis of the deposited data

Results flagged for a closer look

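Fosl1 and Fosl2 differed between D2A1 cells grown with WT and with null MEFs, by -0.87 and -0.48 on the log2 scale (WT minus null partner). They drew attention because the effect of co-culture on the same cells differed with the genotype of the partner, by a test of that difference itself. The D2A1 alone arrays cancel in this difference. The Fosl2 difference was larger for its dim probe than for its bright one.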

How the results depend on the processing

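Of the values of single members under all alternatives, 1152 kept their direction and side of the threshold, 106 passed in neither fit and changed sign, 36 newly passed, 87 no longer passed and 9 reversed. Counts of members that passed are given below as main value and alternative. With slide as a replicate block, the count went from 1 to 2 for D2A1 cells with WT MEFs (Fosl2, -0.41, adjusted p = 0.0405) and from 1 to 2 for the WT MEF response (Ier3, 0.62, adjusted p = 0.0373), and no other member's call changed. The letters A and B were taken to mark slides and were not treated as pairs in the main fit. Deviations of same-letter arrays correlated at 0.09 to 0.60 over 21 pairs of groups (median 0.30). All were positive, so the main fit leaves a part shared by same-letter arrays in its spread. The block raised the names called in every comparison, for example from 814 to 1004 in null MEFs. With each cell type fitted alone, counts became 0 (from 1) for D2A1 cells with WT MEFs, 1 (from 2) with null MEFs, 1 (from 2) between partners, 4 (from 1) for the WT MEF response, 4 (from 0), all lower, for the interaction and 6 (from 3), 4 higher and 2 lower, for co-cultured WT against null MEFs. On the 12 sound scanner arrays, with 1 array each for D2A1 cells alone and with null MEFs, they became 0, 0 and 0 for the 3 D2A1 comparisons, with the processed signal, with normexp and with the brightest probe alike, and 3 (from 5) for the null MEF response with the processed signal and with normexp. Normexp also gave 1 (from 0) for the interaction. On all 14 scanner files, faulty ones included, they fell to 0 in the 3 D2A1 comparisons, both MEF responses and co-cultured WT against null MEFs, and to 1 for WT against null MEFs alone (from 6) and D2A1 cells against WT (from 5) and null MEFs alone (from 6). There Ier3 (-1.76) and Klf4 (-2.40) reversed against WT MEFs, and Jun (-0.78), Ier3 (-1.56) and Klf4 (-0.39) against null MEFs; the cause was not tested. With carry-over subtracted, counts became 0 for D2A1 cells with WT MEFs, 1 between partners, 2 for the null MEF response (1 higher, Klf4, and 1 lower, Fosl1), 1 for the interaction (Fosl1) and 1 for co-cultured WT against null MEFs. The count stayed at 2 for D2A1 cells with null MEFs, with Fosl1 higher and Fosb lower (-5.78), and at 1 for the WT MEF response, with Fosl1 now lower. Several of these values only measure the distance to the floor set for subtracted levels (5.08 to 5.36 on the log2 scale) and are no estimates of a difference. Fosl1 lay at the floor on all 4 co-cultured MEF arrays, which gives its reversals to -3.96 in WT MEFs, -2.11 in null MEFs and -1.86 in the interaction. Fos and Fosb lay there on both arrays of D2A1 cells with null MEFs, and Egr1 on slide B of them, where it reversed to -2.61. Without the 2 arrays with faulty scanner files, an alternative chosen after seeing the data, counts became 0 and 0 for D2A1 cells with WT and null MEFs, 1 between partners, 2 for the WT MEF response and 1 for the interaction. Leaving out each array in turn gave counts of 0 to 2 for D2A1 cells with WT MEFs, 0 to 3 with null MEFs, 1 to 2 between partners, 1 to 1 for the WT MEF and 2 to 4 for the null MEF response, 0 to 0 for the interaction, 5 to 6 and 2 to 3 for WT against null MEFs alone and co-cultured, and 5 to 6 and 6 to 7 for D2A1 cells against WT and null MEFs. Quantile normalization and dropping the filter kept every count of members within 1.5 times the main one. All members were well above background on the 12 sound arrays.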

Other observations

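WT and null MEFs also differed in genes around AP-1. Of 20 AP-1 target genes, 12 were higher and 7 lower in WT than in null MEFs alone, and 15 were higher and 2 lower after co-culture, where 15.9% and 17.9% of all names were higher and lower alone and 14.8% and 14.8% after co-culture. The list's medians were 1.01 and 1.13, against -0.03 and 0.00 over all names. Areg was 2.91 higher in co-cultured WT MEFs (adjusted p = 2.51e-07, limma), and Mmp3 went from -1.71 alone (adjusted p = 1.04e-06) to 1.61 after co-culture (adjusted p = 3.33e-06). Among the bZIP partners, Jdp2 was higher in WT MEFs alone and co-cultured (2.27 and 1.47) and Batf lower (-1.73 and -1.09), while Atf3, a stress-induced repressor, was 2.77 lower on the log2 scale after co-culture (-2.77, adjusted p = 0.000162). Batf was not well above background in WT MEFs in either state, so the sizes of its differences depend on the floor. Of the phosphatases, Dusp6 was higher in WT MEFs in both states (2.45 and 1.61) and Dusp9 lower (-4.12 and -1.88). Co-cultured WT MEFs held a larger share of D2A1 signal (37.7% and 38.4%) than null MEFs (7.64% and 10.4%), and its part in the co-cultured values was not tested.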
